A study of Mus musculus with 3 samples.

Results

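Cytokine and growth hormone feedback in gastrocnemius muscle was followed through 10 genes, chosen by name together with their receptors and transcription factors. They are the feedback inhibitors Cish, Socs2 and Socs3, the kinase Jak2, the transcription factors Stat3, Stat5a and Stat5b, the receptors Ghr and Il6ra, and the growth factor Igf1. They were covered by 29 of the 45101 probe sets on the arrays and make up 10 of 18193 named genes, a probe set being several short probes designed against the same transcript. All mice were male C57BL/6J, 6 weeks of age at the start, and were fed for 15 weeks on a control diet with 10% kcal fat (Control, D12450B), a high-fat diet with 60% kcal fat (HF, D12492), or the same high-fat diet to which sodium ferrous citrate, an iron supplement, was added at 0.023% by weight (HF+SFC). The age in the sample labels is 21 months, which does not match these times. Each group was measured on 1 Affymetrix Mouse Genome 430 2.0 array hybridised with the pooled material of its mice, so there are 3 arrays in all and the spread between mice was not measured. No statistical test was run, and every ratio below compares 1 array with another.

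Growth hormone binds its receptor Ghr on muscle, which activates the attached kinase Jak2 and through it the transcription factors Stat5a and Stat5b. Interleukin-6 and related cytokines signal through Il6ra and a shared receptor chain to the Janus kinases and Stat3. Cish, Socs2 and Socs3 belong to the suppressors of cytokine signalling, whose genes are switched on by STAT factors and whose proteins then block the receptor or the kinase. Their transcript levels are widely used as a readout of recent receptor signalling, while Igf1, induced by growth hormone and by load, is a growth factor for muscle fibres.

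STAT dimers bind DNA at the palindrome TTCNNNGAA, so the promoter windows of the inhibitors were read for it. The windows, from RefSeq on GRCm38.p6, run from 250 bases before to 50 bases after an annotated transcript start, so that base 251 is the first transcribed base. Of the 10 genes, 9 had a window. Socs2 had none, so its promoter was not searched. Among those 9 genes, only the windows of Cish and Socs3 held the palindrome. They are printed 5′ to 3′ on the strand of the gene, with each match in capitals, because each of these genes had the lowest ratio of HF+SFC to HF among genes of its range of signal.
Cish, chr9:107296409-107296708, plus strand: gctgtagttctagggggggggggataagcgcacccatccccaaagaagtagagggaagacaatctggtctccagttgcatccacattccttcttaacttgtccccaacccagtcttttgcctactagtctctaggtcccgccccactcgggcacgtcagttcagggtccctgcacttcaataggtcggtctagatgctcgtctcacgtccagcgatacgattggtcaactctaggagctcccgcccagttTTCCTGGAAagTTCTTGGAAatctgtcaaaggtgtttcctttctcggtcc
Socs3, chr11:117969317-117969616, minus strand: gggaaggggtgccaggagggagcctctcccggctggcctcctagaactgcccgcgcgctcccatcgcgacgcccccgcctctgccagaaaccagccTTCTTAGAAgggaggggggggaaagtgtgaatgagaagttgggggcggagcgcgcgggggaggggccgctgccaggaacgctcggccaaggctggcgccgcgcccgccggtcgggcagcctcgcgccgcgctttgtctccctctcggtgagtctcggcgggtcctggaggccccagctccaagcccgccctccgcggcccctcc
The Cish window held 2 matches that do not overlap, TTCCTGGAA at bases 251 to 259 and TTCTTGGAA at bases 262 to 270. The Socs3 window held TTCTTAGAA at bases 97 to 105. The palindrome reads alike on both strands, and no other motif was searched. Of 32851 promoter windows of this length, 8.30% held at least 1 match and 0.457% held at least 2. A match of these letters was not tested for binding.

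The inhibitor genes had their highest signals on the HF array and much lower signals on the HF+SFC array. Cish, an inhibitor that binds activated growth hormone, prolactin and interleukin receptors, read 1107 on the Control array, 2008 on HF and 638 on HF+SFC. Its signal was 1.81-fold higher with HF than with Control, a log2 ratio of 0.86, and 3.15-fold lower with HF+SFC than with HF, a log2 ratio of -1.65. HF+SFC also lay below Control, 1.73-fold. Socs2, the main brake on growth hormone receptor signalling, read 968 on the Control array, 1429 on HF and 684 on HF+SFC on its brightest probe set. It was thus 1.48-fold higher with HF than with Control, just short of the 1.5-fold threshold that the study applied to its arrays, 2.09-fold lower with HF+SFC than with HF, and 1.42-fold lower with HF+SFC than with Control. Socs3, which restrains interleukin-6 and leptin signalling, read 163 on the Control array, 449 on HF and 167 on HF+SFC. Its signal was 2.75-fold higher with HF than with Control and 2.69-fold lower with HF+SFC than with HF, while HF+SFC and Control differed by a ratio of 1.02. On the brightest probe sets, the order of the arrays therefore differed within the family. Cish and Socs2 were lowest in HF+SFC, and Socs3 was about equal in HF+SFC and Control. A measure of RNA integrity, the signal of the 3′ beta-actin control divided by that of the 5′ one, also peaked on the HF array (1.09 on Control, 1.52 on HF and 1.15 on HF+SFC), while that of Gapdh was 0.842, 0.832 and 0.820. The adipocyte marker Adipoq, the adiponectin gene, was highest there too, at 901, 4637 and 2915. The part of RNA integrity and of cell makeup in the values of the inhibitors was not tested.

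**Figure D1:**
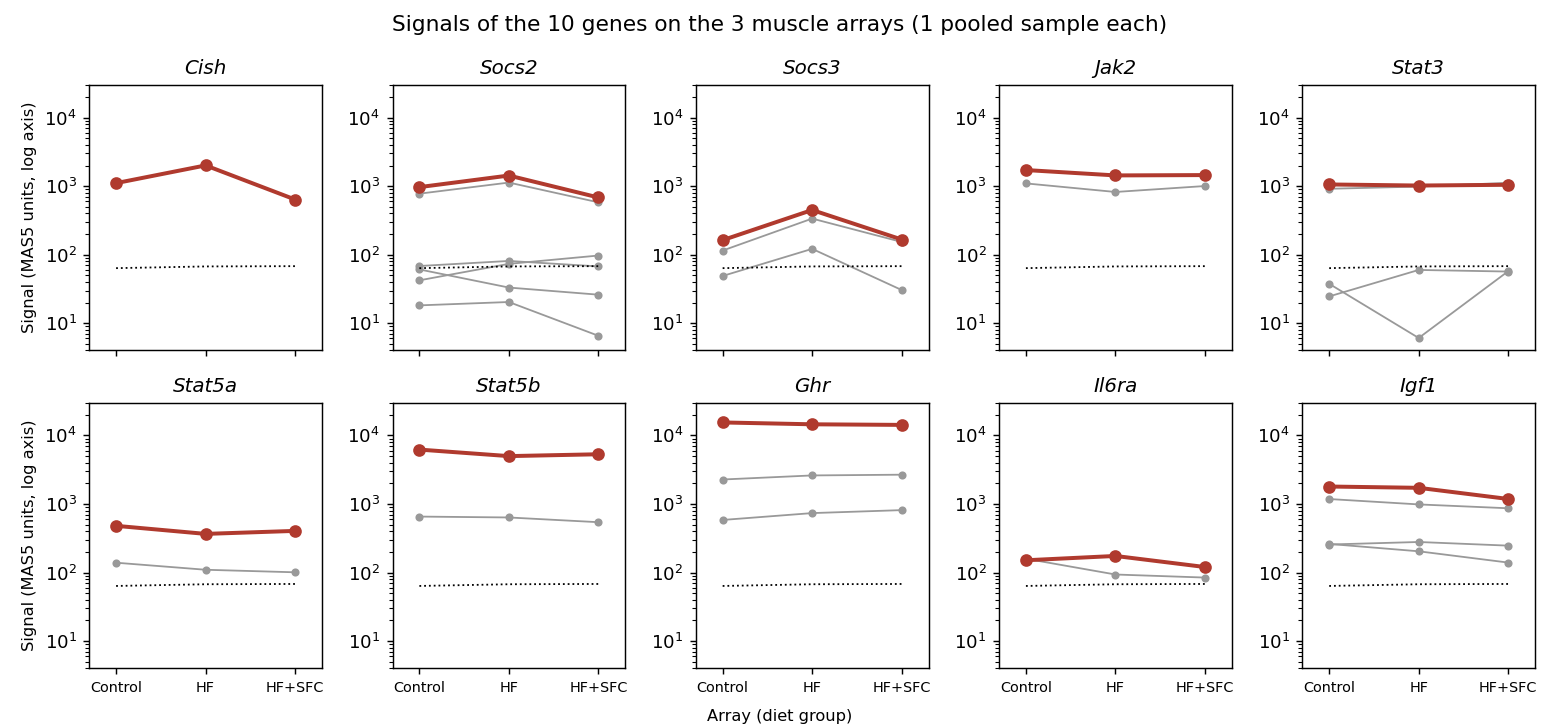
Signal on each of the 3 arrays (MAS5 units, log axis) for every probe set of the 10 genes, with the brightest probe set of each gene in red, the others in grey and the median of all probe sets as a dotted line; each point is 1 pooled sample. Cish, Socs2 and Socs3 peak on the HF array (2008, 1429 and 449), whereas the brightest probe sets of Jak2, the STAT genes and Ghr do not.

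Several probe sets of the inhibitors can be set beside these readings. Cish has 1 probe set, so its values have no second reading. The second Socs2 probe set designed on the same reference transcript had 777, 1128 and 581 in Control, HF and HF+SFC, with ratios of 1.45 for HF to Control and 0.515 for HF+SFC to HF. The brightest Socs2 probe set carries a suffix that marks possible binding to other transcripts, and this second one lacks it. The remaining 4 Socs2 probe sets, designed on expressed sequence tags, read between 6.56 and 97.2, near or below the array medians of 63.6, 67.4 and 68.0, and had no common direction. All 3 probe sets of Socs3 had the same direction in both comparisons with HF. The ratios of HF to Control were 2.75, 2.93 and 2.49, and those of HF+SFC to HF were 0.371, 0.456 and 0.251. The 2 brighter Socs3 probe sets also carry a suffix that marks possible binding to other transcripts. The remaining one lacks it but was dimmer, at 48.9 on Control, 122 on HF and 30.5 on HF+SFC, and it placed HF+SFC below Control with a ratio of 0.624. The second brightest placed HF+SFC (153) above Control (115), with a ratio of 1.335, so this order depended on the probe set.

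In HF+SFC against HF, 3 of the 10 genes were at least 1.5-fold lower, namely Cish, Socs2 and Socs3, and none was 1.5-fold higher on its brightest probe set. Over all named genes 13.5% were 1.5-fold lower, but dim genes make up nearly all of these: the share was 25.6% of genes at or below the median signal and 0.352% of the 4548 genes above the 75th percentile. Cish had the lowest ratio and Socs2, on its brightest probe set, the next lowest of those 4548 bright genes. The log2 ratios of these bright genes had a median of 0.02 and an SD across genes of 0.16. The second Socs2 probe set lay below the 75th percentile of signal. Socs3 lay between the median and the 75th percentile of signal, where 2.51% of 4548 genes were 1.5-fold lower, and it had the lowest ratio among them. In HF against Control, 2 of the 10 genes were at least 1.5-fold higher, Cish and Socs3, and none was 1.5-fold lower. The background shares were 17.0% of all named genes, 1.08% of bright genes and 4.27% of genes between the median and the 75th percentile. Cish ranked 17 from the top of the bright genes, Socs2 ranked 60 and Socs3 ranked 11 in its own range of signal. In HF+SFC against Control, Cish and Igf1 were at least 1.5-fold lower, against a background of 12.4% of all named genes and 0.748% of bright genes. The 3 comparisons share arrays, so a deviation of the HF array alone would enter both comparisons with HF. The genes were chosen with these values known, and the ranks describe these arrays only.

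**Figure D2:**
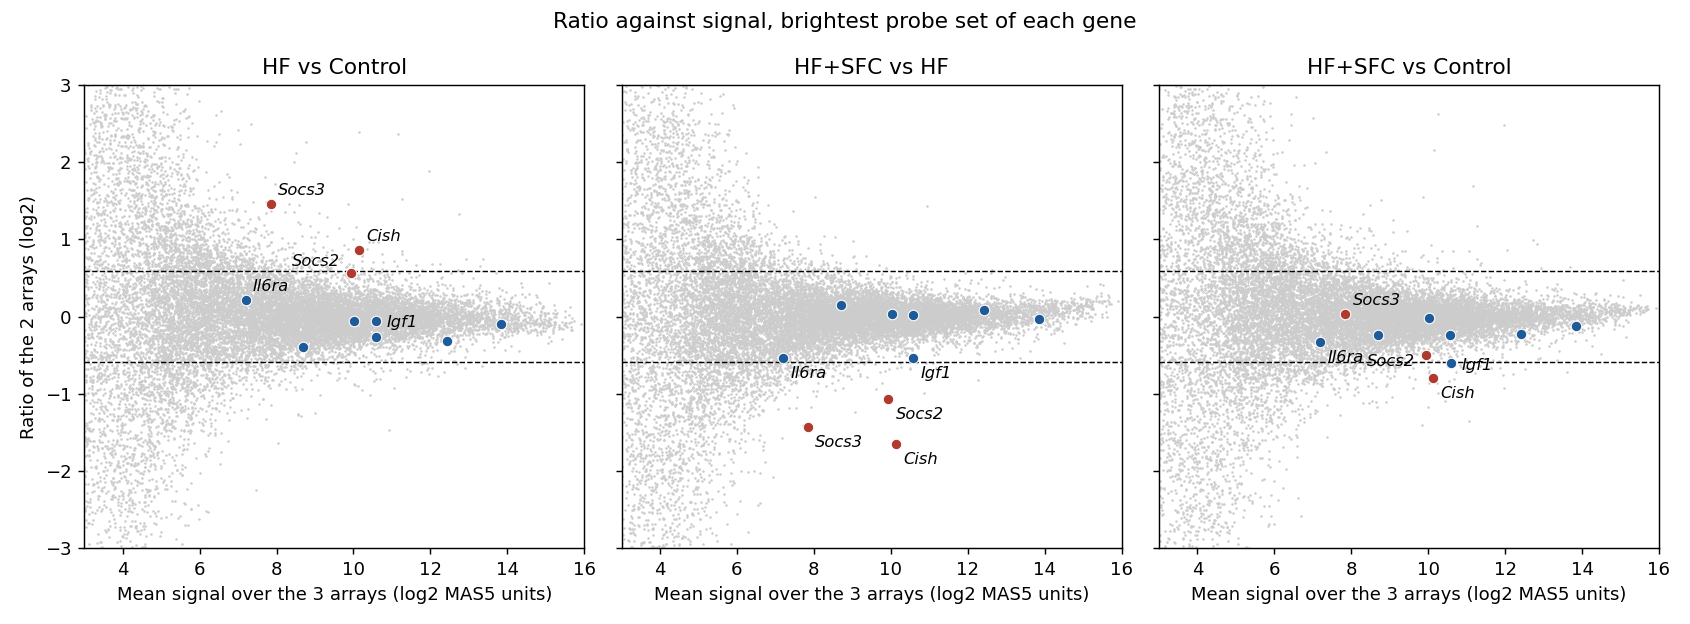
Log2 ratio of the 2 arrays named above each panel against the mean signal over the 3 arrays (log2 MAS5 units), for the brightest probe set of each named gene (grey), the feedback inhibitors (red) and the other 7 genes (blue); dashed lines mark 1.5-fold and genes beyond the axis limits are not drawn. In HF+SFC vs HF, Cish (-1.65), Socs3 (-1.43) and Socs2 (-1.06) lie below the cloud of genes of like signal.

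In HF+SFC against HF, the transducers of the pathway differed far less than the inhibitors on their brightest probe sets. The gap was smaller in HF against Control, where Socs2 had a log2 ratio of 0.56. In that comparison Stat5b ranked 243 and Jak2 422 from the bottom of the 4548 bright genes. In HF+SFC against Control, Jak2 (-0.24), Stat5a (-0.24) and Stat5b (-0.23) differed more than Socs3 (0.03). Jak2, the kinase bound to the growth hormone receptor, read 1718 on the Control array, 1435 on HF and 1451 on HF+SFC, a log2 ratio of -0.26 for HF to Control and 0.02 for HF+SFC to HF. Its second probe set had 1097, 823 and 1004. Both were lowest in HF. Stat5b, the STAT that carries much of the growth hormone response, had 6217, 4993 and 5314 in Control, HF and HF+SFC, with log2 ratios of -0.32 for HF to Control and 0.09 for HF+SFC to HF. The closely related Stat5a had 480, 366 and 405, with log2 ratios of -0.39 and 0.15. Thus Jak2 and both STAT5 genes were highest on the Control array, and their brightest probe sets in HF+SFC lay within a log2 difference of 0.15 of HF. The second probe sets of Stat5b (655, 635 and 542) and Stat5a (139, 110 and 101) were also highest in Control, but they were lowest in HF+SFC. Stat5a and Stat5b have very similar sequences, and whether their probe sets bind both transcripts was not tested. Stat3, the transcription factor of the interleukin-6 family, had 1059, 1021 and 1047, a span of 1.04-fold over the 3 arrays. Its next probe set had 916, 986 and 1120. The remaining 2 Stat3 probe sets read from 6.09 to 59.9, below the array medians.

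Other members of these families gave no ratio past 1.5-fold where the signal was above the median of named genes. Of 5 further SOCS genes, all were higher with HF than with Control (median log2 ratio 0.17, beside 0.01 over all named genes), and in HF+SFC against HF 2 were higher and 3 lower (median -0.01). Socs6, which acts on insulin and receptor kinase signalling, had the highest ratio of HF to Control, with 1302 on Control, 1670 on HF and 1429 on HF+SFC. Socs5 had 816, 918 and 1021, and Socs7 had 4352, 4909 and 5064. Socs1, the inhibitor of interferon signalling, was dim at 60.1, 69.0 and 68.6. Of 7 further JAK and STAT genes 6 were analysed here, and 3 of them lay above the median signal: Jak1 had 4141, 3939 and 4329, Tyk2 had 237, 227 and 263, and Stat6 had 738, 627 and 581. The ratio farthest from equality among these 3 was that of Stat6 for HF+SFC to Control, at -0.34 on the log2 scale. Among 14 phosphatases, PIAS proteins and adaptors that damp or support JAK signalling, none passed 1.5-fold in HF against Control, and Sh2b2, a dim adaptor gene (57.8 in HF and 88.9 in HF+SFC), was the one gene to pass it in HF+SFC against HF. Over all named genes, 17.0% were at least 1.5-fold higher and 12.2% lower in HF against Control. In HF+SFC against HF, 13.7% were higher and 13.5% lower by that much. Of the genes of this list above the median signal, Cbl, a ubiquitin ligase of activated receptors, had the highest ratio of HF+SFC to HF (316 on Control, 320 on HF and 435 on HF+SFC), and Pias3, an inhibitor of Stat3, had the lowest (223, 281 and 230).

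**Figure D3:**
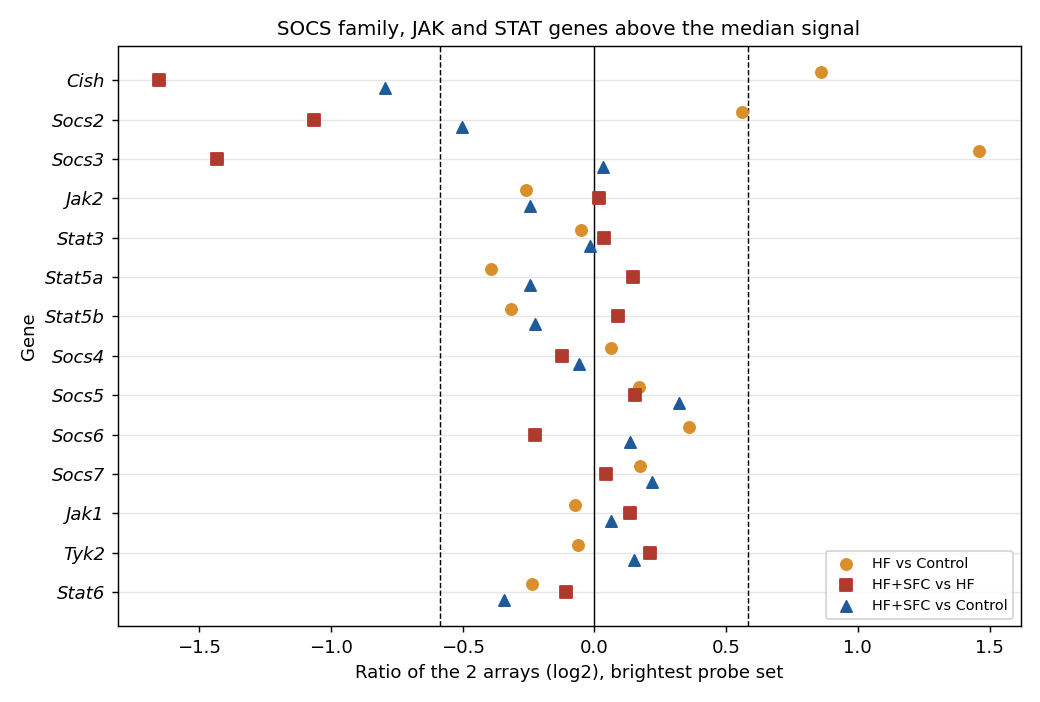
Log2 ratio on the brightest probe set of each SOCS, JAK and STAT gene above the median signal, in HF vs Control (circles), HF+SFC vs HF (squares) and HF+SFC vs Control (triangles), with dashed lines at 1.5-fold and 1 pooled sample per array. Cish, Socs2 and Socs3 have squares between -1.65 and -1.06, whereas the squares of the other genes lie between -0.22 and 0.21.

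The growth hormone receptor differed little between the arrays on its brightest probe set, and the interleukin-6 receptor gave unequal readings on its 2 probe sets. Ghr read 15473 on the Control array, 14541 on HF and 14251 on HF+SFC on its brightest probe set, log2 ratios of -0.09 for HF to Control and -0.03 for HF+SFC to HF. Its other 2 probe sets ran the opposite way, with 2275, 2609 and 2675 on the second and 584, 736 and 813 on the third. The third was 1.39-fold higher with HF+SFC than with Control. Ghr makes a full-length receptor and a shorter binding protein, and which of these each probe set reads was not tested. Il6ra, the interleukin-6 receptor, was dim, with 151, 174 and 120 in Control, HF and HF+SFC, and was 1.45-fold lower with HF+SFC than with HF. Its second probe set had 159, 93.5 and 84.4, with ratios to Control of 0.588 for HF and 0.531 for HF+SFC, both past 1.5-fold. The 2 probe sets thus differed in the direction of HF against Control and shared the lowest value in HF+SFC. Il6ra lies at or below the median signal, where ratios scatter widely. Of 12 further ligands and receptors of the interleukin-6 family 10 were analysed here, and the 5 above the median signal had log2 ratios between -0.11 and 0.09 in HF+SFC against HF. Of these 10, 3 passed 1.5-fold in that comparison (1 higher and 2 lower), all of them dim. Over all named genes, 13.7% were at least 1.5-fold higher and 13.5% lower. Of genes at or below the median signal, 26.4% were higher and 25.6% lower by that much. The shared signalling chain Il6st had 3412, 3026 and 3105, and the leukemia inhibitory factor receptor Lifr had 5057, 5014 and 5255. Il6 itself read 39.7, 19.4 and 4.24, below the medians of all 3 arrays. Of 9 further receptors that work through Jak2, 7 were analysed here and 3 lay above the median signal. The leptin receptor Lepr had 157, 164 and 159, and the interferon gamma receptor chains Ifngr1 (896, 849 and 811) and Ifngr2 (1933, 1919 and 2078) were as flat. Of the 7, 1 passed 1.5-fold in HF+SFC against HF, beside the shares given above. This was Epor, the erythropoietin receptor, dim at 94.5, 123 and 54.5, in the same order as Cish, with a ratio of HF+SFC to HF of 0.444.

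Igf1 had lower signals in HF+SFC than on either of the other arrays. On its brightest probe set it read 1797 on the Control array, 1720 on HF and 1183 on HF+SFC, so that HF+SFC was 1.45-fold lower than HF and 1.52-fold lower than Control. That ratio to HF ranked 17 from the bottom of the 4548 bright genes. All 4 Igf1 probe sets were lowest in HF+SFC. The second read 1181, 985 and 865 in the order of Control, HF and HF+SFC, the next 256, 279 and 247, and the dimmest, designed on the reference transcript, 261, 204 and 140. Their ratios of HF+SFC to Control were 0.733, 0.962 and 0.534, so the size of the difference depended on the probe set. Unlike the inhibitors, Igf1 was not higher with HF than with Control on its brightest probe set, with a log2 ratio of -0.06.

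Most genes around Igf1 with a signal above the median were higher, not lower, in HF+SFC against HF. Of 17 genes of the IGF axis, 11 lay above the median signal. In HF+SFC against HF 9 of these were higher and 2 lower (median log2 ratio 0.08). Over the whole list 11 were higher and 6 lower (median 0.04). Among all bright genes 55.8% were higher in that comparison, and 49.3% of those between the median and the 75th percentile of signal. Igf2, a fetal growth factor of the same family, read 675 on the Control array, 443 on HF and 496 on HF+SFC. It was the one gene past 1.5-fold among the 11 above the median signal, being lower with HF than with Control. Lower by that much were 12.2% of all named genes and 2.81% of genes between the median and the 75th percentile of signal. The receptor Igf1r had 421, 352 and 412. Igfbp5, an IGF-binding protein made by muscle, had 9516, 10302 and 11539, and Igfbp6 had 1198, 1462 and 1277. Irs2, an adaptor of the insulin and IGF1 receptors, had 612, 440 and 515, while Irs1 had 6774, 6656 and 6254, the same order as Igf1 over a much narrower span. Igfals, a dim gene of this list that encodes a partner of circulating IGF, also had that order (183, 147 and 123).

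Other genes known as STAT5 targets went in several directions in both comparisons with HF. Of 13 such genes, 11 lay above the median signal, of which 4 were higher and 7 lower in HF+SFC against HF (median log2 ratio -0.07). In HF against Control the counts were again 4 and 7 (median -0.03), but in HF+SFC against Control 2 were higher and 9 lower (median -0.14). Of bright genes 55.8%, 43.3% and 49.6% were higher in these comparisons, in the same order. Between the median and the 75th percentile of signal the shares were 49.3%, 48.0% and 48.8%. Bcl2l1, which encodes the survival protein Bcl-xL, read 584 on the Control array, 821 on HF and 547 on HF+SFC on its brightest probe set, the same order as Cish, and was 0.666 times as high in HF+SFC as in HF. Its next probe set had 186, 146 and 183, with HF the lowest of the arrays. The kinase genes Pim1 (709, 400 and 381) and Pim3 (3649, 2113 and 2351) were both at least 1.5-fold lower with HF than with Control. The shares lower by that much were 12.2% of all named genes and 0.923% of bright genes. Between the median and the 75th percentile of signal the share was 2.81%. Bcl6, a repressor that opposes STAT5 at shared sites, had 4295, 4251 and 3282. Whether STAT5 raises or lowers each gene of this list was not taken into account in the counts.

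Genes known as STAT3 targets were mostly lower with HF+SFC than with HF. Of 18 such genes 17 were lower (median log2 ratio -0.23, beside 0.01 over all named genes) and 3 of them at least 1.5-fold lower, beside the 13.5% of all named genes. All 12 genes above the median signal were lower on their brightest probe sets (median -0.17), Hif1a by a log2 ratio of only -0.01. The second probe set of Cebpb had 3280 on Control, 2926 on HF and 3032 on HF+SFC, so it was higher with HF+SFC than with HF. For comparison, 55.8% of bright genes and 49.3% of genes between the median and the 75th percentile were higher with HF+SFC than with HF. Of these 12 only Hp passed 1.5-fold, which encodes haptoglobin, with 317 on Control, 2940 on HF and 1945 on HF+SFC. The metallothionein gene Mt1 had 2214, 2777 and 2106, and Mt2 had 1326, 2157 and 1853. Cebpd, an acute phase transcription factor, had 2783, 1874 and 1700, whereas Hif1a was flat at 1545, 1627 and 1614. In HF against Control 14 of the 18 were higher and 7 were at least 1.5-fold higher, beside 17.0% of all named genes, with Hp, Mt2 and the lipopolysaccharide-binding protein gene Lbp (289, 650 and 553) above the median signal among these 7. Several genes of this list, Hp and Lbp among them, are also expressed in adipose tissue.

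**Figure D4:**
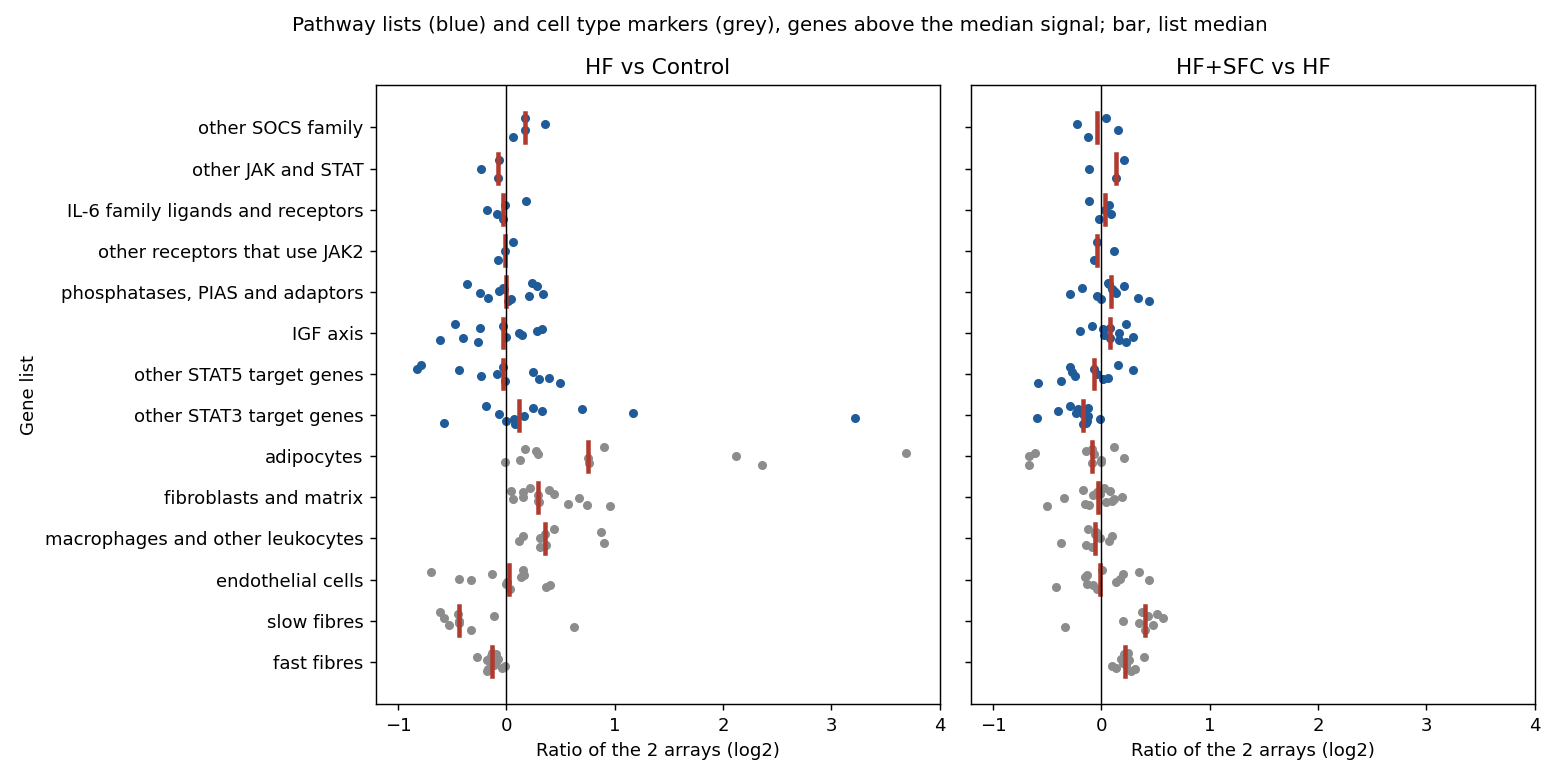
Log2 ratio on the brightest probe set of each gene above the median signal (points) and the median of each list (red bars), for pathway lists in blue and cell type markers in grey, in HF vs Control (left) and HF+SFC vs HF (right); each ratio compares 2 arrays of 1 pooled sample. All 12 STAT3 target genes lie left of 0 in HF+SFC vs HF, where their median is -0.17, and adipocyte markers extend farthest to the right in HF vs Control.

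Markers of other cell types also differed between the arrays. Over all named genes, 50.7% were higher with HF than with Control and 51.4% higher with HF+SFC than with HF. The counts of higher or lower markers below stand beside these shares. At least 1.5-fold higher with HF than with Control were 17.0% of all named genes. Of bright genes it was 1.08%, and 4.27% between the median and the 75th percentile of signal. At least 1.5-fold lower with HF+SFC than with HF were 13.5%, 0.352% and 2.51% of these same groups. Of 13 adipocyte markers 12 were higher with HF than with Control, 7 of them at least 1.5-fold, and 9 were lower with HF+SFC than with HF, 3 of them at least 1.5-fold. These 3 were Adipoq, the leptin gene Lep and the lipid droplet gene Cidec, whose ratios of HF+SFC to HF were 0.629, 0.654 and 0.628. Lep read 45.8 on the Control array, 592 on HF and 387 on HF+SFC, and Cidec 159, 689 and 432. The summed signal of the list was 77100, 92244 and 88509, and most of it came from Car3 (47690, 51953 and 51978), which muscle itself expresses, and Fabp4 (21626, 26497 and 25306). Of 18 leukocyte markers 17 were higher with HF than with Control and 12 lower with HF+SFC than with HF, with sums of 3647, 4831 and 4579. Of 14 fibroblast and matrix markers all were higher with HF than with Control and 8 were lower with HF+SFC than with HF, with sums of 38150, 48815 and 47600. Slow fibre markers had sums of 92831, 69270 and 88929 and fast fibre markers 590308, 541570 and 633425, with Myh4 of fast fibres at 49066, 44594 and 51107. Of 10 slow fibre markers 9 were lower with HF than with Control and 8 higher with HF+SFC than with HF. All 13 fast fibre markers were lower with HF than with Control and higher with HF+SFC than with HF. Endothelial markers had sums of 9668, 9698 and 9844, satellite cell markers 1845, 1934 and 1834, and hepatocyte markers 833, 819 and 715, with Alb at 55.3, 101 and 69.0. No marker reads exactly 0 in values of this kind. In a tissue extract, fewer cells of a type and less RNA per cell cannot be told apart.

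The genes most like the inhibitors over the 3 arrays were sought among bright genes, by the distance between log2 signals after each gene was centred on its own mean. The gene nearest to Cish was Socs2, at a distance of 0.42, followed by Tatdn1 at 0.48 and Cited2, a transcriptional coregulator, at 0.59. The genes nearest to Socs2 were Tatdn1 at 0.087, Cited2 at 0.17 and the heat shock gene Hspa1a at 0.27. The likeness was not mutual, as Cish ranked only 16 by distance from Socs2. Tatdn1 read 1760 on the Control array, 2679 on HF and 1352 on HF+SFC. Cited2 had 4759, 6724 and 3794. Hspa1a had 962, 1284 and 800.4, and its near-identical copy Hspa1b can share its probes. Each of these genes was highest in HF and lowest in HF+SFC. With 3 arrays such likeness rests on 2 differences per gene. Socs3 was not above the 75th percentile of signal and was left out of this search.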

How the data were processed

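As the study describes it, cDNA made from muscle RNA was mixed within each diet group, and 1 array was hybridised per group. The values deposited by the authors are MAS5 intensities on a linear scale (version not given in the sources used here), and the mean between the lowest and the highest 2% was 500.0 on each array. Genes were named from the annotation of the array, and symbols were brought up to date with a RefSeq table, which held the gene ID of 34741 of the 34945 probe sets with 1 symbol. Probe sets with several symbols (932) or none (9160) and 64 controls stayed unnamed. A gene was read on its brightest probe set, taken by mean log2 signal, without an offset, and counted at 1.5-fold. Bright genes had a mean above the 75th percentile (826), and the median was 160. Members and gene lists, the latter from textbook knowledge, were chosen with earlier results of these data known. Named were all members, the 3 nearest patterns to each bright inhibitor, and genes of each pathway list past 1.5-fold or at its ends above the median signal. Some further list genes were named for their role after their values were seen. The alternatives tried were averaging of all probe sets, the second brightest, leaving out those with the suffix _x_at or _s_at, quantile normalization, centring on medians, an offset of 50, a filter at the array median, a 2-fold threshold and a looser one at a log2 ratio of 0.32. The steps were tested on simulated data. Python 3.11.15, numpy 2.4.6, pandas 2.3.3 and matplotlib 3.10.9 were used. Precision is limited by having 3 arrays.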

Additional observations from a re-analysis of the deposited data

How the results depend on the processing

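No paired analysis was possible because each group had 1 array. Of the 10 genes, the number past 1.5-fold in HF against Control was 2 in the reported setting, 1 at a 2-fold threshold (Socs3) and 4 at the looser threshold of 0.32 on the log2 scale. In HF+SFC against HF it was 3, and 5 at the looser threshold, where Il6ra and Igf1 joined Cish, Socs2 and Socs3. In HF+SFC against Control it was 2 in the reported setting, 1 on the second brightest probe set, 1 with an offset of 50, 0 at 2-fold and 4 at the looser threshold. The other alternatives moved no count by more than 1.5 times, but the genes were not always the same. On the second brightest probe set, which Cish lacks, the 2 in HF against Control were Socs3, higher, and Il6ra, lower. In HF+SFC against Control, the mean of all probe sets gave Cish and Il6ra instead of Cish and Igf1. In HF+SFC against HF, the log2 ratio stayed between -1.67 and -1.58 for Cish over 5 alternatives, between -1.08 and -0.64 for Socs2 over 6 and between -2.00 and -1.13 for Socs3 over 6. For Socs3 in HF+SFC against Control it reached 0.42 at the highest. Averaging all probe sets gave Stat3 a log2 ratio of 0.84 in HF+SFC against HF, through a probe set that read 6.09 in HF and 57.4 in HF+SFC. Of 177 log2 ratios of the 10 genes under alternatives, 150 kept their direction and their side of 1.5-fold, and 27 did not. Those past 1.5-fold in the reported setting kept their direction, but Socs3 in HF+SFC against Control moved from 0.03 to -0.68 without the probe sets of suffix _x_at or _s_at, and Il6ra in HF against Control from 0.21 to -0.77 on the second brightest probe set. With 1 array per group, signal over background and the lack of replicates limit every value.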
